A study of Gallus gallus with 12 samples.

Results

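The inner ear patterning and morphogenesis genes DACH1, LMX1B, GREB1L and SLITRK6 were followed in 12 libraries from chicken otocysts, the closed epithelial vesicles from which the inner ear forms. Each was taken as every transcript that carried its name in the differential expression tables of the study, which gave 1 transcript a gene, so 4 of the 28756 transcripts quantified in each library. The transcripts were ENSGALT00000058752.2 for DACH1, ENSGALT00000078478.2 for LMX1B, ENSGALT00000024089.6 for GREB1L and ENSGALT00000027325.7 for SLITRK6. The LMX1B transcript was named WNT5A in one of those tables, but both tables gave LMX1B as its human homologue, and a different transcript carried the name WNT5A elsewhere. DACH1, GREB1L and SLITRK6 were in the study's table for these same DNBCAT libraries, so their values in that comparison are a description and no independent evidence. LMX1B was named only from tables of Notch experiments.

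The otocyst acquires its dorsal, ventral, anterior and posterior identities from diffusible signals, among them Wnt ligands from the dorsal hindbrain, which act through β-catenin on transcription in the otic epithelium. LMX1B is a LIM-homeodomain transcription factor, known for dorsal identity in the vertebrate limb, and DACH1 is a nuclear cofactor of the Dachshund family, described first in the developing eye of the fly. GREB1L is a relative of the oestrogen-regulated coactivator GREB1, and its mutation in humans causes kidney and inner ear malformations. SLITRK6 is a transmembrane protein with leucine-rich repeats that is needed in the mouse for the innervation of the inner ear and whose loss in humans causes deafness.

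White Leghorn embryos were electroporated in ovo in the right otic cup at embryonic day 2 and both otocysts were collected 24 h later, at embryonic day 3. In the DNBCAT set (Wnt loss of function, embryos 50, 51 and 52 in the labels) the right otocyst received a truncated β-catenin that acts as a dominant negative, on a transposable (Tol2) plasmid that also encodes the red fluorescent protein mCherry. In the control set (embryos 60, 61 and 62) the right otocyst received the mCherry plasmid alone, and the left otocyst of every embryo was left untransfected. Each otocyst was 1 library, so each group held 3 otocysts and there were 6 left otocysts in all. Transfection is mosaic, embryos were picked for the most intense and widespread fluorescence, and the cells that took up a plasmid were not separated from the rest, so each value is an average over transfected and untransfected cells. In such bulk samples, fewer cells of a type and less RNA per cell cannot be told apart.

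Estimated counts ranged from 13157404 to 16097100 per library, with a median of 14801238. The right otocyst of embryo 51 stood apart: its TMM factor, which corrects for composition, was 0.772, against 0.981 to 1.07 in the other 11 libraries, and its summed level of otic epithelium markers was 289 TPM (transcript abundance scaled to transcript length and library total), against 662 to 914 TPM in the others. None of the 6 otic markers was at 0 in any library. The 4 transcripts passed the filter on low counts in every comparison. Their lowest estimated counts in any library were 902 for DACH1, 726 for LMX1B, 251 for GREB1L and 180 for SLITRK6, where counting alone gives a relative error of 3.33%, 3.71%, 6.31% and 7.45% in that order. Estimated counts, checked after rounding to a few significant digits, were whole numbers in all 12 libraries for LMX1B, GREB1L and SLITRK6. The same held for their named relatives LMX1A and GREB1. That rounding can hide small fractions at higher counts. DACH1 had a whole estimate at that rounding in 3 of 12 libraries, and a fractional estimate arises where reads also match another target.

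In the untransfected left otocysts, DACH1 and LMX1B were abundant and SLITRK6 and GREB1L were several-fold lower. These levels are in TPM, which is per length, so that transcripts can be compared with each other. Each gene is represented here only by its named transcript. Any other transcript of the same gene was not named and was not added. The levels, percentiles and order below are therefore those of the named transcripts and may differ from those of whole genes. DACH1 had 77.6, 68.2 and 106 TPM in the left otocysts of DNBCAT embryos 50, 51 and 52, and 109, 97.0 and 87.2 TPM in those of mCherry embryos 60, 61 and 62. LMX1B had 85.5, 74.3 and 90.3 TPM in the left otocysts of DNBCAT embryos and 87.1, 98.0 and 99.3 TPM in those of mCherry embryos. Both transcripts were therefore in the upper part of the transcriptome. Their medians were at the 90.9th percentile for DACH1 and the 90.5th percentile for LMX1B among transcripts with a median of at least 1 count.

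SLITRK6 had 18.0, 16.8 and 14.1 TPM in the left otocysts of DNBCAT embryos, and 19.5, 22.5 and 16.6 TPM in those of mCherry embryos. GREB1L had 12.5, 5.73 and 15.7 TPM in the left otocysts of DNBCAT embryos, and 23.6, 13.4 and 8.68 TPM in those of mCherry embryos. The medians over 6 left otocysts placed the named transcripts in the order DACH1 (92.1 TPM), LMX1B (88.7 TPM), SLITRK6 (17.4 TPM) and GREB1L (13.0 TPM). Only the step from LMX1B to SLITRK6 was larger than the spread between embryos: LMX1B was higher in 6 of 6 otocysts, with a median ratio of 4.61 and no overlap of the ranges. The ranges of DACH1 and LMX1B overlapped, DACH1 was the higher of the pair in 2 of 6 otocysts, and without embryo 60 LMX1B came first. SLITRK6 and GREB1L also overlapped, with SLITRK6 higher in 4 of 6.

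**Figure D1:**
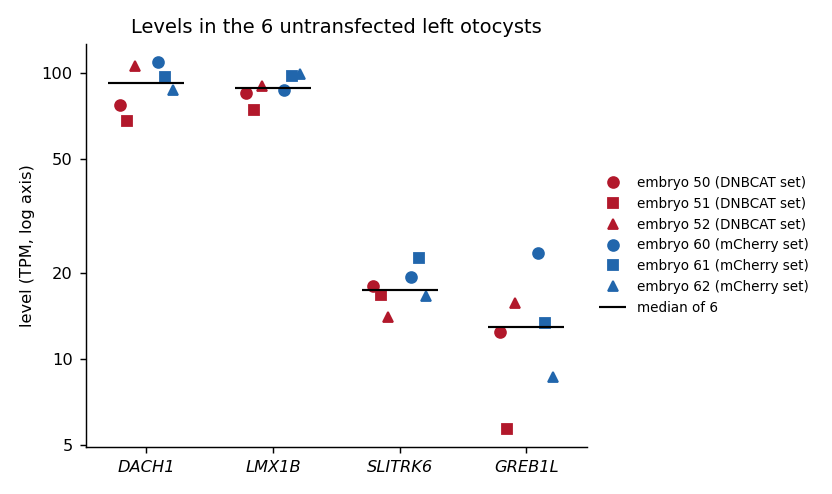
Level (TPM, log axis) of each gene in the 6 untransfected left otocysts, one point an otocyst, red for DNBCAT embryos and blue for mCherry embryos, with the median as a bar. DACH1 and LMX1B lie between 68.2 and 109 TPM, SLITRK6 between 14.1 and 22.5 TPM, and GREB1L is spread from 5.73 to 23.6 TPM.

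GREB1L varied most among the 4 genes from embryo to embryo. Its highest left otocyst was 4.12-fold above its lowest in TPM, with a coefficient of variation of 46.6%, against 1.60-fold and 17.7% for DACH1, 1.60-fold and 16.1% for SLITRK6, and 1.34-fold and 10.3% for LMX1B. The SD of GREB1L over the 6 left otocysts was 0.59 on the log2 scale of CPM (counts scaled to the library total), at the 97.1st percentile of 2672 transcripts within 1.5-fold of its level, whose median SD was 0.18. The other 3 genes had SDs of 0.18 (DACH1), 0.14 (LMX1B) and 0.21 (SLITRK6), at the 63.5th, 40.2nd and 46.4th percentiles of transcripts of like level. Right and left otocysts of an embryo shared this spread: the mean log2 CPM of an embryo ranged over 1.93 for GREB1L, with embryo 60 highest and embryo 51 lowest, whereas the largest right-left difference within an embryo was 0.88. For SLITRK6 the order was the other way round, with a range of embryo means of 0.90 and a largest right-left difference of 1.002. Embryo means include the DNBCAT right otocysts. In left otocysts alone the highest CPM was 3.35-fold above the lowest for GREB1L and 1.60-fold for SLITRK6. The GREB1L transcript was also the longest of the 4, at 6900 bases against 1771 to 2523. The part of transcript length or library coverage in its spread was not tested.

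The left otocysts of DNBCAT embryos were compared with those of mCherry embryos to see whether the untransfected side differed between the 2 sets. All 4 genes were nominally lower in DNBCAT embryos, as were 51.9% of the 19647 transcripts tested, and the ranges of the sets overlapped for each gene, where 3.99% of all transcripts had the DNBCAT embryos below without overlap. The log2 differences were -0.17 (SE 0.13) for DACH1, -0.14 (SE 0.12) for LMX1B, -0.37 (SE 0.41) for GREB1L and -0.19 (SE 0.17) for SLITRK6. None passed edgeR's quasi-likelihood test (Benjamini-Hochberg adjusted p = 0.9999 for each gene). At an unadjusted p under 0.05 edgeR called 0 of the 4 genes, against 2.31% of all transcripts, and DESeq2 called none of them at an adjusted p under 0.05, against 0.219% of all transcripts. Without embryo 60 the GREB1L difference was 0.03, and the set cannot be told apart from any unlabelled batch.

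The main comparison asked how blocking β-catenin in the right otocyst changed these genes relative to the untransfected left otocyst of the same embryo. DACH1, GREB1L and SLITRK6 were lower in the DNBCAT-transfected otocyst of every embryo, and LMX1B was not. DACH1, GREB1L and SLITRK6 were listed because the study called them in these same libraries, whereas LMX1B was listed from Notch experiments. That choice favours a contrast of this kind, so nothing is read from the difference between LMX1B and the other genes. The values below are in CPM with TMM normalization over the 12 libraries, which compare 1 gene between otocysts and not 1 gene with another. CTNNB1, the gene of β-catenin itself, had a log2 fold change of -0.12 (SE 0.12), and reads of the construct were not analysed separately here. AXIN2, a feedback target of Wnt signalling, had 19.0, 15.9 and 27.7 CPM in DNBCAT right otocysts and 35.5, 27.8 and 44.3 CPM in the left otocysts of the same embryos, a log2 fold change of -0.79 (SE 0.11). AXIN2 is also in the study's table for these libraries, so it is no independent check.

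DACH1, the nuclear cofactor, had 87.5, 76.6 and 99.3 CPM in the DNBCAT right otocysts of embryos 50, 51 and 52, and 115, 115 and 153 CPM in their left otocysts. All 3 transfected otocysts lay below all 3 untransfected ones. The right-left log2 ratios were -0.39, -0.58 and -0.62, the tightest of the 3 genes that were lower. The group averages were 87.8 ± 11.4 CPM on the right and 127 ± 21.9 CPM on the left (SD, n = 3 each), and the fitted log2 fold change was -0.53 (SE 0.085, 95% interval -0.76 to -0.30).

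SLITRK6, the transmembrane protein, had 13.8, 15.3 and 16.4 CPM in DNBCAT right otocysts, and 27.6, 29.3 and 21.0 CPM in the left otocysts. The groups did not overlap here either. Its right-left log2 ratios of -1.002 and -0.94 in embryos 50 and 51 were the largest of the 4 genes, while embryo 52 gave -0.36, and its left otocyst was the lowest of the 3. The averages were 15.2 ± 1.30 CPM on the right and 26.0 ± 4.37 CPM on the left (SD, n = 3 each), with a fitted log2 fold change of -0.76 (SE 0.19, 95% interval -1.27 to -0.25).

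GREB1L, the relative of GREB1, had 29.8, 21.3 and 47.4 CPM in DNBCAT right otocysts, and 54.9, 28.6 and 67.3 CPM in the left otocysts. The groups overlapped, since the left otocyst of embryo 51 was below the right otocysts of embryos 50 and 52, but the right side was the lower one in 3 of 3 embryos. The right-left log2 ratios were -0.88, -0.43 and -0.51 and the fitted log2 fold change was -0.60 (SE 0.13, 95% interval -0.95 to -0.26). GREB1 itself had 67.5, 50.6 and 86.1 CPM in DNBCAT right otocysts and 112, 86.5 and 114 CPM in the left otocysts, with ratios of -0.73, -0.77 and -0.41. Both members of the pair were thus lower on the right in each of the 3 embryos. GREB1, like GREB1L, was named from the study's tables of called transcripts, so it is no independent check.

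LMX1B, the LIM-homeodomain factor, had 102, 61.7 and 78.9 CPM in DNBCAT right otocysts, and 88.9, 87.6 and 91.6 CPM in the left otocysts. Its left otocysts were close to each other and the right ones fell on both sides of them, with ratios of 0.19, -0.51 and -0.22. The fitted log2 fold change was -0.17 (SE 0.16), and its 95% interval of -0.60 to 0.26 includes both no difference and the fitted value of DACH1. The lowest ratio came from embryo 51, whose right library stood apart, and without that embryo the log2 fold change was -0.01. LMX1A, the paralogue that marks dorsal and non-sensory otic epithelium, gave 0.06, -0.23 and -0.24 and a log2 fold change of -0.13 (SE 0.097).

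**Figure D2:**
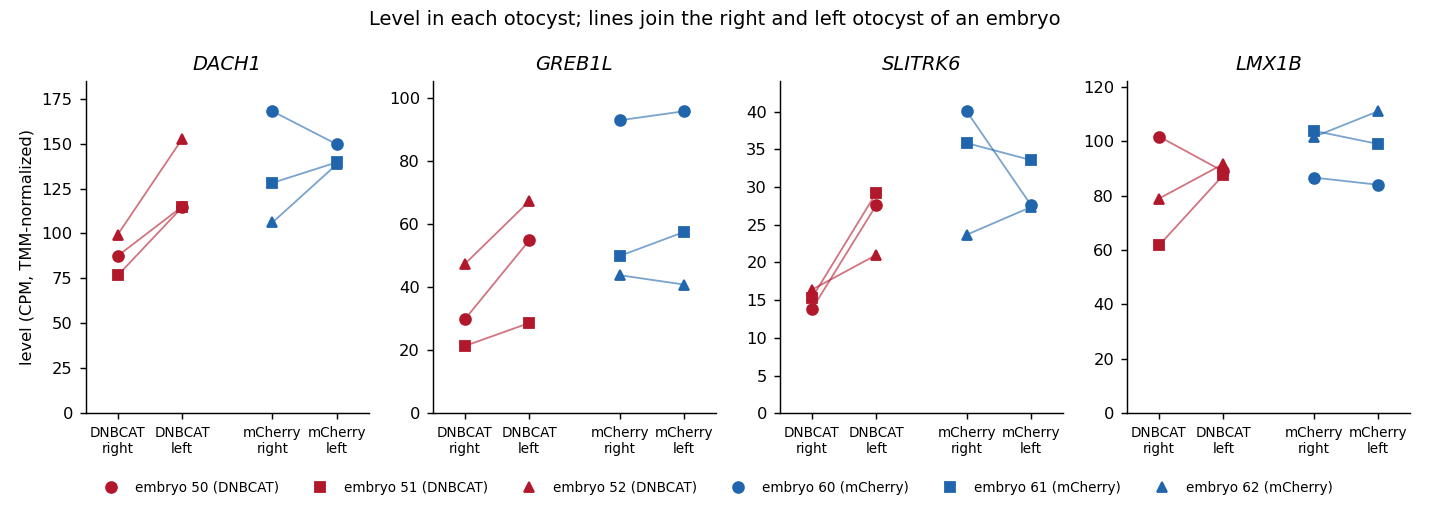
Level (CPM, TMM-normalized) of each gene in all 12 otocysts, with DNBCAT embryos in red, mCherry embryos in blue, and a line joining the right and left otocyst of an embryo. In all 3 DNBCAT embryos the right point is below the left one for DACH1, GREB1L and SLITRK6, the LMX1B lines cross, and for GREB1L embryo 60 is high on both sides.

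No transcript passed an adjusted p under 0.05 in this comparison by edgeR (0% of 19408), so none of the 4 genes did. The adjusted p was 0.72 for DACH1, GREB1L and SLITRK6 and 0.78 for LMX1B. At an unadjusted p under 0.05 edgeR called 1204 transcripts (6.2%), and 2.74% of all transcripts were called as lower. By edgeR's unadjusted p, DACH1 was at rank 37 of all transcripts, GREB1L at rank 127 and SLITRK6 at rank 242, so 3 of the 4 genes were among those called as lower. DESeq2's Wald test called 453 transcripts (2.33%) at an adjusted p under 0.05, among them DACH1 (adjusted p = 4.35e-05), GREB1L (adjusted p = 0.012) and SLITRK6 (adjusted p = 0.031), but not LMX1B (adjusted p = 0.80). Being lower on the right in all 3 embryos was true of 3 of the 4 genes and of 17% of all transcripts, and a lack of overlap with the right side below was true of 2 of the 4 genes and of 5.13% of all transcripts. The median log2 fold change was -0.56 over the 4 genes and -0.02 over all transcripts. Since 3 of the 4 were named from a table made on these libraries, nothing is read from these counts.

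The right otocyst of embryo 51 did not decide the direction of the 3 lower genes: without that embryo the log2 fold changes were -0.50 for DACH1, -0.69 for GREB1L and -0.68 for SLITRK6. On the TPM scale the median of all transcripts was itself at -0.23 (limma on log2(TPM + 1)), and the values relative to that median were -0.57 for DACH1, -0.53 for GREB1L, -0.73 for SLITRK6 and -0.22 for LMX1B.

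The control electroporation measured the right-left difference in the absence of DNBCAT. For each of the 4 genes the direction differed between embryos, whereas 13.5% of all transcripts had the right otocyst lower in each of the 3 embryos and 13.1% had it higher in each. DACH1 had 168, 128 and 106 CPM in the mCherry right otocysts of embryos 60, 61 and 62, and 150, 140 and 139 CPM in their left otocysts, and the right values surrounded the left ones, with log2 ratios of 0.17, -0.12 and -0.39. SLITRK6 had 40.0, 35.8 and 23.7 CPM in mCherry right otocysts, and 27.6, 33.6 and 27.3 CPM in the left ones, with ratios of 0.54, 0.09 and -0.21. The 0.54 of SLITRK6 in embryo 60 was the largest right-left difference of any of the 4 genes in the control set, and it was smaller in size than the ratios of embryos 50 and 51 and larger than that of embryo 52.

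GREB1L had 92.9, 49.9 and 43.8 CPM in mCherry right otocysts and 95.8, 57.5 and 40.8 CPM in the left ones, with ratios of -0.04, -0.20 and 0.10. The right and left otocysts of an embryo were close although the embryos differed by over 2-fold. LMX1B had 86.6, 104 and 102 CPM in mCherry right otocysts and 84.0, 99.0 and 111 CPM in the left ones, with ratios of 0.04, 0.07 and -0.13. The log2 fold changes were -0.11 (SE 0.12) for DACH1, 0.15 (SE 0.16) for SLITRK6, -0.05 (SE 0.076) for GREB1L and -0.0015 (SE 0.056) for LMX1B. edgeR called 0% of 19754 transcripts at an adjusted p under 0.05 and 3.75% at an unadjusted p under 0.05, and DESeq2 called 0.425%; no call by either test was one of the 4 genes (edgeR adjusted p from 0.960 to 0.9998).

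**Figure D3:**
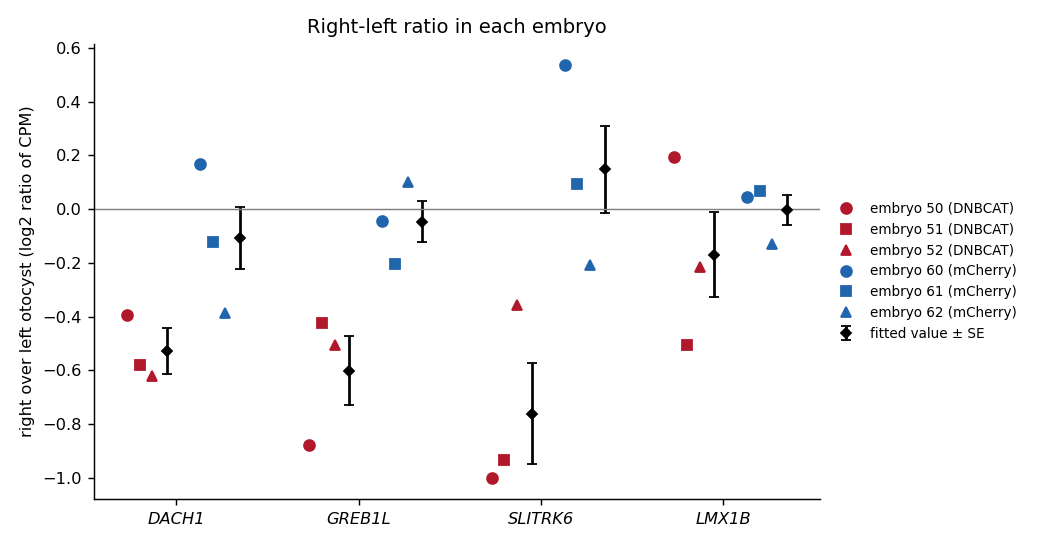
Right over left otocyst (log2 ratio of CPM) in each embryo, DNBCAT embryos in red and mCherry embryos in blue, with the fitted log2 fold change ± SE of each set as a black diamond. All 3 DNBCAT ratios are below 0 for DACH1, GREB1L and SLITRK6, and the mCherry ratios of each gene lie on both sides of 0.

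A difference between the 2 electroporations needs its own test, which was made in 1 fit over all 12 otocysts. The DNBCAT effect minus the mCherry effect was -0.91 (SE 0.26) on the log2 scale for SLITRK6, -0.56 (SE 0.15) for GREB1L, -0.42 (SE 0.15) for DACH1 and -0.17 (SE 0.18) for LMX1B. The 95% intervals ran from -1.54 to -0.27 for SLITRK6, from -0.93 to -0.19 for GREB1L, from -0.79 to -0.05 for DACH1 and from -0.61 to 0.27 for LMX1B. After adjustment none passed by edgeR (adjusted p = 0.935 for SLITRK6, GREB1L and DACH1 and 0.942 for LMX1B), nor did any of the 19298 transcripts, and 4.36% had an unadjusted p under 0.05. At that unadjusted limit DACH1, GREB1L and SLITRK6 were called as lower, as were 2.21% of all transcripts; without the embryo block SLITRK6 alone was. DESeq2 called 0.332% of all transcripts and none of the 4 genes, with adjusted p-values of 0.14 for SLITRK6, 0.17 for GREB1L and 0.39 for DACH1. The 3 DNBCAT right otocysts were the 3 lowest of all 12 for DACH1 and for SLITRK6, which was the case for 1.27% of all transcripts. The difference contains the DNBCAT libraries on which these 3 genes were listed, so nothing is read from either count.

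Markers of other cells were measured beside these values. The summed TPM of the 3 otic neuroblast markers (NEUROD1, NHLH1, DLL1) was 40.3 to 96.3 in DNBCAT right otocysts and 95.5 to 123 in their left otocysts, and it was 84.2 to 149 in mCherry right otocysts and 127 to 144 in their left otocysts. All 3 had a log2 fold change below 0 in both sets, with medians of -0.36 in the DNBCAT set and -0.16 in the mCherry set. The 10 markers of periotic mesenchyme summed to 223 to 538 TPM in DNBCAT right otocysts and 386 to 481 TPM in the left ones, so the dissected otocysts held mesenchymal transcripts at levels that overlapped between sides. Within embryos the direction differed. The mesenchyme sum was 310 TPM on the right and 481 TPM on the left in embryo 50, and 223 and 394 TPM in embryo 51. In embryo 52 the right was the higher, at 538 TPM against 386 TPM. The 6 otic epithelium markers summed to 289 to 832 TPM in DNBCAT right otocysts and 662 to 897 TPM in the left ones, with a median log2 fold change of -0.17. The neural crest and glial pair ERBB3 and FABP7 summed to 198 to 210 TPM in DNBCAT right otocysts and 188 to 236 TPM in the left ones. In the mCherry set that pair summed to 189 to 551 TPM on the right and 175 to 216 TPM on the left. The 551 TPM came from the right otocyst of embryo 60 alone. The sum was nearly all FABP7, which reached 539 TPM in mCherry right otocysts, against at most 11.6 TPM for ERBB3. In embryo 60 the right-left log2 ratio was 1.73 for FABP7 and -0.11 for ERBB3. The 4 hindbrain and other neural markers, 1 of them at 0 in each DNBCAT right library and in 2 of the 3 left ones, summed to 36.6 to 126 TPM in DNBCAT right otocysts and 104 to 133 TPM in the left ones. In the mCherry set they summed to 66.7 to 126 TPM on the right and 107 to 138 TPM on the left. In left otocysts PRDM12 averaged 90.7 TPM and PENK 32.2 TPM in the DNBCAT set, and 89.6 and 27.9 TPM in the mCherry set. In the same otocysts HOXA3 averaged 0.31 and 0.07 TPM, and LHX5 0.10 and 0 TPM. These sums were thus mostly PRDM12 and PENK. HOXA3 added little to them. It had 0.40 to 12.8 CPM in mCherry right otocysts and 0 to 0.21 CPM in the left ones. Its log2 fold change there was 5.81 (edgeR adjusted p = 0.96, DESeq2 adjusted p = 2.2e-05). PENK and PRDM12 went the other way in the mCherry set, at -0.52 and -0.22. In the DNBCAT set HOXA3 had 0 to 5.04 CPM on the right and 0.13 to 0.65 CPM on the left. In DNBCAT right otocysts the lowest sum of each marker list came from embryo 51, whose right library stood apart, and TPM is not corrected for composition. The otic epithelium sum was 832 TPM on the right and 763 TPM on the left in embryo 50. In embryo 52 it was 753 TPM on the right and 897 TPM on the left. The neuroblast sum was 74.5 and 96.3 TPM on the right of embryos 50 and 52, and 123 and 108 TPM on the left. The part of these cell types in the differences of DACH1, GREB1L and SLITRK6 was not tested.

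Other genes of otic development gave the setting. They were taken from lists of named genes, and names were available only for transcripts that the study's tables called in some experiment. The study's Wnt loss-of-function tables hold 8 of the 14 otic transcription factors and 7 of the 13 secreted signals and modulators. They also hold 5 of the 9 neurosensory and Notch genes and 24 of the 44 genes of its ear development terms. That tally was not limited to the DNBCAT libraries and may include the study's separate experiment with a Wnt inhibitor drug on other embryos. The counts below are therefore no independent evidence of a direction. Over all transcripts, 52.3% had a log2 fold change below 0 in the DNBCAT set and 50% in the mCherry set, with 2.74% in the DNBCAT set and 1.75% in the mCherry set called as lower at an unadjusted p under 0.05. None of these genes passed edgeR's adjusted p in the DNBCAT or the mCherry set.

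Of the 14 otic transcription factors, 11 had a log2 fold change below 0 in DNBCAT right against left otocysts, 3 of them at an unadjusted p under 0.05, and the median was -0.27, against -0.02 over all transcripts. In the mCherry set 12 of 14 were below 0, 0 of them at that limit, with a median of -0.09. The homeobox genes MSX1 and MSX2, which are activated by BMP and Wnt signals in many dorsal tissues, had log2 fold changes of -0.76 (SE 0.10) and -0.70 (SE 0.090). MSX1 had 123, 89.0 and 87.7 CPM in DNBCAT right otocysts and 192, 174 and 140 CPM in the left ones, without overlap. SOX9, a SOX factor of the otic placode and vesicle, had -0.33 (SE 0.11), and MEIS1, a TALE homeobox factor, had -0.66 (SE 0.25), with a ratio of -1.36 in embryo 51 and of -0.35 and -0.32 in embryos 50 and 52. In the mCherry set the log2 fold changes were 0.07 for MSX1, -0.17 for MSX2, -0.13 for SOX9 and -0.27 for MEIS1. The unadjusted p of the difference by edgeR was 0.0023, 0.0059, 0.21 and 0.30 in that order.

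Of the 13 secreted signals and their modulators, 11 were below 0, 5 of them at an unadjusted p under 0.05, with a median of -0.46. WNT2B, a Wnt ligand, had 19.98, 19.7 and 18.3 CPM in DNBCAT right otocysts and 43.8, 45.6 and 46.96 CPM in the left ones, with ratios of -1.13, -1.21 and -1.36 and a log2 fold change of -1.23 (SE 0.11). DISP1, which releases Hedgehog ligands from the cells that make them, had -0.88 (SE 0.12), SFRP1, a secreted Wnt modulator, -0.51 (SE 0.10), and the ligand WNT5A -0.46 (SE 0.13). In the mCherry set, 13 of 13 were below 0 with a median of -0.17, 3 of them at an unadjusted p under 0.05. There WNT2B had -0.23, DISP1 -0.17, SFRP1 -0.02 and WNT5A -0.16. The unadjusted p of the difference by edgeR was 1.6e-04, 0.0016, 0.089 and 0.072 in that order. FGF3, among the 2 genes above 0 in the DNBCAT set, had ratios of 0.56, 0.41 and 0.62 there. Its mCherry ratios were -0.20, -0.19 and -0.75, and its difference was 0.91 (edgeR unadjusted p = 0.021).

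Of the 9 neurosensory and Notch genes, 7 were below 0, 2 of them at an unadjusted p under 0.05, and the median was -0.28. In the mCherry set 8 of 9 were below 0, 0 of them at that limit, with a median of -0.11. In the DNBCAT set NEUROD1, the bHLH factor of otic neuroblasts, had -0.48 (SE 0.095), the Notch ligand JAG2 -0.37 (SE 0.13), the Notch modifier LFNG -0.28 (SE 0.11) and the Notch target HEY1 0.28 (SE 0.12). With mCherry alone these genes had -0.25, -0.12, -0.11 and 0.03 in that order. The unadjusted p of the difference by edgeR was 0.19, 0.17, 0.37 and 0.11. Of the 44 genes of the ear development terms, 31 were below 0, 16 of them at an unadjusted p under 0.05, and the median was -0.31; without embryo 51 it was 36 of 44, with 10 at that limit. In the mCherry set 35 of 44 were below 0, 7 of them at that limit, with a median of -0.12. In each of the 4 lists the mCherry set thus had more genes below 0 than the DNBCAT set. The lists share genes, so these are not 4 separate observations. ALDH1A3, which makes retinoic acid, had a log2 fold change of -1.88 (SE 0.24), with 69.8, 19.97 and 26.3 CPM in DNBCAT right otocysts and 173, 108 and 101 CPM in the left ones. CYTL1, a secreted cytokine-like protein, had -0.93 (SE 0.14). The 3 lower members of the 4 genes, at -0.53 to -0.76, thus had log2 fold changes within the range of these lists and smaller in size than those of WNT2B and ALDH1A3. In the mCherry set ALDH1A3 had -0.16 and CYTL1 -0.22.

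**Figure D4:**
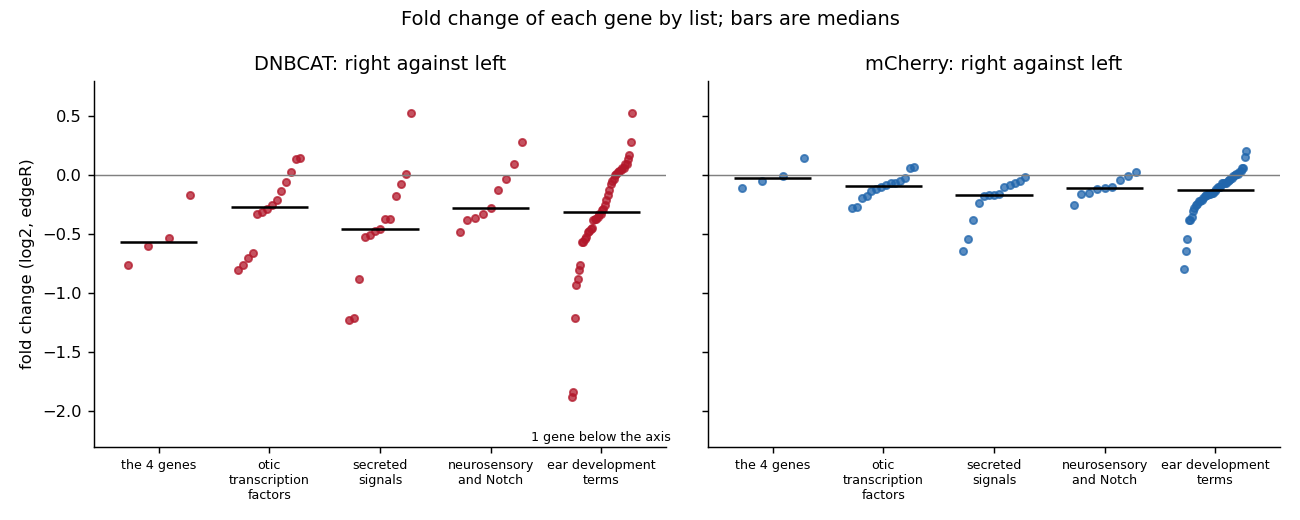
Fitted log2 fold change of right against left otocysts for each gene of 5 lists, DNBCAT set at the left and mCherry set at the right, one point a gene, with the list median as a bar. The DNBCAT medians are -0.56 (the 4 genes), -0.27, -0.46, -0.28 and -0.31 and the mCherry medians -0.02, -0.09, -0.17, -0.11 and -0.12; PLPPR4, with rounded counts of 0 in all 3 DNBCAT right otocysts, is off the axis.

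The named transcripts whose levels over the 12 otocysts were most like each gene were ranked by Pearson's r of log2(CPM + 1) among 792 others. The 12 points share embryos, sides and the DNBCAT treatment, so r is a description only. The 6 left otocysts are among the 12 used for the ranking, so r over them alone is no separate check. For DACH1 these were ITM2C (r = 0.97), AXIN2 (r = 0.96) and SEMA3A (r = 0.95), which had r of 0.95, 0.85 and 0.88 over the 6 left otocysts alone. For GREB1L they were PTPRF (r = 0.96), SLC12A2 (r = 0.95) and LRIG1 (r = 0.95), with 0.98, 0.98 and 0.99 over the left otocysts, where embryo 60 was high and embryo 51 low. RET (r = 0.93), CRMP1 (r = 0.89) and PARP4 (r = 0.89) came closest to SLITRK6, with 0.67, 0.57 and 0.44 over the left otocysts, and CTNNB1 (r = 0.91), DPYSL2 (r = 0.85) and KCNG1 (r = 0.83) to LMX1B, with 0.63, 0.89 and 0.49. LMX1B and CTNNB1 both had their lowest right-left log2 ratio in embryo 51 (-0.51 and -0.36), whose right library stood apart. The CTNNB1 ratio ran from -0.07 to 0.01 in the other embryos.

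Among the 4 genes themselves, DACH1 and GREB1L were the most alike over the 12 otocysts (r = 0.85), followed by DACH1 and SLITRK6 (r = 0.78). Over the 6 left otocysts alone DACH1 and GREB1L had r = 0.69, whereas DACH1 and SLITRK6 had r = -0.39 and GREB1L and SLITRK6 r = -0.26. LMX1B had r of 0.42 or less with each of the others over the 12 otocysts.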

How the data were processed

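Bulk RNA-seq was made from single otocysts (SMART-Seq v4 cDNA, Nextera XT libraries, paired reads). The authors quantified transcripts with kallisto against the chicken transcriptome (GRCg6a per the labels) and deposited, for each library, estimated counts and TPM; no read was handled here. Estimated counts were rounded to whole numbers. A transcript entered a comparison when 47% or more of its libraries held 5 or more estimated counts, and was tested with edgeR 4.0.16 (R 4.3.3; TMM, quasi-likelihood F test, Benjamini-Hochberg over all transcripts tested, threshold 0.05), with the embryo as a block for right against left and for the difference of the 2 electroporations, and without it for left against left. Members and lists were chosen with earlier results of these data known. Named genes were the 4 members, the paralogues LMX1A and GREB1, CTNNB1 and AXIN2, and the 3 most correlated named transcripts a member. Up to 4 genes a list were also named, by the smallest p in the DNBCAT set. The ear development list shares many genes with the other 3 lists, among them the named MSX1, SOX9, DISP1, WNT5A, FGF3, NEUROD1, JAG2 and HEY1. PLPPR4 and FGF3 were named after their values were seen. Right and left otocysts of an embryo share the animal; their deviations from the group means correlated at 0.15 to 0.48, against -0.40 to 0.05 between embryos. Deviations from the mean of 3 libraries sum to 0, so higher values within embryos force lower ones between embryos. The between-embryo range is therefore no independent baseline. Alternatives were DESeq2 1.42.0 (Wald test, and its size factors in edgeR), no filter, at least 10 counts in every library, limma 3.58.1 on log2(TPM + 1) or with 0.1 added instead, no block, all 12 libraries in one fit, and each embryo left out. The fits were also run on simulated counts with known fold changes. Those counts held no embryo effect, so nothing is read from them on the pairing. For right against left, the p-values measure the spread of right-left differences over 3 embryos, with variation estimated partly from other transcripts. Those of the difference use all 6 embryos in the same way. For left against left they measure the spread between the 3 embryos of a set. Counting errors assume independent molecules although PCR reads carried no molecular identifiers. Levels in CPM used TMM factors over the 12 libraries. Coordinates and sequences are not given here.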

Additional observations from a re-analysis of the deposited data

How the results depend on the processing

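The count of transcripts called, 0 in each comparison with the main edgeR settings, moved with several choices. In DNBCAT right against left otocysts it was 453 by DESeq2, 37 by limma on log2(TPM + 1), 0 by limma on log2(TPM + 0.1) and 1 by edgeR with at least 10 counts in every library. In the mCherry set DESeq2 called 84, for the difference of the effects 64 (1 by limma with either pseudocount) and between left otocysts 43. Only DESeq2 called members, in the DNBCAT set: DACH1 at -0.51, GREB1L at -0.59 and SLITRK6 at -0.74. The cause was not tested.

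Signs turned only for values near 0 in the mCherry set and for GREB1L between left otocysts. LMX1B in the mCherry set was 0.0040 with DESeq2 size factors, 0.0036 with DESeq2 and 0.058 without embryo 62; there SLITRK6 was -0.050 without embryo 60, GREB1L 0.026 without embryo 61 and DACH1 0.025 without embryo 62. GREB1L between left otocysts was 0.025 without embryo 60. Without embryo 60 the level order had LMX1B at place 1 and DACH1 at place 2.

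Leaving out 1 embryo at a time gave, in the DNBCAT set, -0.60 to -0.49 for DACH1, -0.69 to -0.46 for GREB1L, -0.97 to -0.64 for SLITRK6 and -0.36 to -0.01 for LMX1B. In the mCherry set it gave -0.25 to 0.025, -0.12 to 0.026, -0.050 to 0.32 and -0.042 to 0.058 for the same genes. The differences of the effects were -0.54 to -0.28, -0.64 to -0.42, -1.11 to -0.71 and -0.35 to -0.01, and those between left otocysts -0.32 to -0.10, -0.64 to 0.025, -0.29 to -0.060 and -0.24 to -0.044. Without the replicate block the DNBCAT values were -0.53, -0.61, -0.77 and -0.14, the mCherry values -0.09, -0.05, 0.17 and -0.01, and the differences -0.45, -0.56, -0.95 and -0.14; the pairing changed no call at an adjusted p under 0.05. At an unadjusted p under 0.05 GREB1L was lost without the block in the DNBCAT set, and GREB1L and DACH1 in the difference. SLITRK6 was lost in the DNBCAT set without embryo 50 or 51 (edgeR unadjusted p = 0.073 and 0.053). DACH1 was lost in the difference without embryo 51, 52, 60 or 61 (edgeR unadjusted p = 0.072, 0.090, 0.083 and 0.074). LMX1B was gained in the difference without embryo 50 (edgeR unadjusted p = 0.041). DACH1 was gained between left otocysts without embryo 52 (edgeR unadjusted p = 0.021). With 3 embryos a set, LMX1B was not resolved from 0.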
